A study of Mus musculus with 3 samples.

Results

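The respiratory chain genes described here were every gene of the count tables whose symbol matched the naming pattern of a complex I to V subunit (Nduf with the letter a, b, c, s or v and a number, Cox4 to Cox8, Uqcr, Sdha to Sdhd, Atp5), plus Cyc1, Cycs and the mitochondrially encoded mt-Nd, mt-Co, mt-Cytb and mt-Atp genes, with assembly factors (Ndufaf) and genes marked -ps left out. The rule found 106 of 56980 genes, 93 in the nuclear genome and 13 in mitochondrial DNA. Complex I held 49 genes (42 nuclear and 7 mt-), complex II 4, complex III 10 (9 and 1), complex IV 22 (19 and 3) and complex V 20 (18 and 2), and the remaining gene was Cycs. The rule reads gene symbols and no measured value, but it was chosen with earlier results of these data known. The pattern does not match Ndufab1. Ndufa4 is counted in complex I by its name although it is known as a complex IV subunit, and Atp5o stands for 2 Ensembl genes, ENSMUSG00000022956 and ENSMUSG00000116933.

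Bone marrow nucleated cells (BMNCs) of C57BL/6 male mice were profiled by droplet 3′ single-cell RNA-seq in 3 libraries, 1 per group, at day 14. Control mice were not irradiated, IR mice received 6.0 Gy of gamma rays from a cobalt-60 source with solvent (soybean oil with DMSO), and IR+CBD mice received the same dose with 4 intraperitoneal injections of cannabidiol at 50 mg/kg around the irradiation. The label of the last library names only the cannabidiol, and its irradiation is taken from the study's description. In each library Lin-Kit+, Lin-Kit- and Lin+ cells of 3 mice were sorted and mixed in 5, 4 and 1 parts, so the share of a cell type in a library is not its share in the marrow. Mice were pooled and each treatment is a single library, so no test between treatments was possible, and the intervals below are 95% intervals that cover counting error only.

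The respiratory chain passes electrons from NADH (complex I) and succinate (complex II) through complex III and cytochrome c to oxygen at complex IV, and complex V, the ATP synthase, uses the resulting proton gradient to make ATP. Complexes I, III, IV and V are built from subunits of both genomes, while complex II and cytochrome c are wholly nuclear. Several nuclear subunits of complex IV have isoform genes used in different tissues, and haematopoietic stem cells, erythroid precursors and neutrophils are known to differ in how much they rely on oxidative phosphorylation.

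Promoters are shown for nuclear genes that the comparisons below turn on: Cycs, the isoform pairs' members Cox6a1, Cox6b1 and Cox6b2, and Atp5g1. They are RefSeq promoters of GRCm38.p6, from 250 bases before to 50 bases after the annotated start, all on the minus strand and written 5′ to 3′. Capitals mark letters that match GCGCANGCG (NRF1) or CCGGAAG (ETS family, to which GABP belongs) on either strand, and AAGATGGCG (YY1) was searched in the same way.
Cycs, chr6:50566520-50566819: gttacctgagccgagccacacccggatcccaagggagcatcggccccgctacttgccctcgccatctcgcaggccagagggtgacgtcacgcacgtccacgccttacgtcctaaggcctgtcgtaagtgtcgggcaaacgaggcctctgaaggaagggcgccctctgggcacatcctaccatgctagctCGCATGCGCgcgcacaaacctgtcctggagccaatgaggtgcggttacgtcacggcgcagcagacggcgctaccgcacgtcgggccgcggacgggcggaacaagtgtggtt
Cox6a1, chr5:115348909-115349208: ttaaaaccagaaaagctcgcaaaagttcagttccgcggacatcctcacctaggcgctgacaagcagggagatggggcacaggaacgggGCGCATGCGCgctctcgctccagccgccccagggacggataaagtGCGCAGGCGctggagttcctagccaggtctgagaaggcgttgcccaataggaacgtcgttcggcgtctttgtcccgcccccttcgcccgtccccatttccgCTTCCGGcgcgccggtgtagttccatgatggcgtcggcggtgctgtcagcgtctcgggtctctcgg
Cox6b1, chr7:30626065-30626364: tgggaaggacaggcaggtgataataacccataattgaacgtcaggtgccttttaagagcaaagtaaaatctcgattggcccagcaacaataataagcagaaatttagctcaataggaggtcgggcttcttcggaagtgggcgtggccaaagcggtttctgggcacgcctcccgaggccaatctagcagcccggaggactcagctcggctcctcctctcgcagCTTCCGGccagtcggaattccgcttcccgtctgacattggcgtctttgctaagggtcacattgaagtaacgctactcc
Cox6b2, chr7:4753045-4753344: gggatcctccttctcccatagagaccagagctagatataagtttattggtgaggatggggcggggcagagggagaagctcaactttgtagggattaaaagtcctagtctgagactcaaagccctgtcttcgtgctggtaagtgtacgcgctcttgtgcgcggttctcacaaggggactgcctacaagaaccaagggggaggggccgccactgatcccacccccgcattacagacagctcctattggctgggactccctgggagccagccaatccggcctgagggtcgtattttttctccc
Atp5g1, chr11:96075582-96075881: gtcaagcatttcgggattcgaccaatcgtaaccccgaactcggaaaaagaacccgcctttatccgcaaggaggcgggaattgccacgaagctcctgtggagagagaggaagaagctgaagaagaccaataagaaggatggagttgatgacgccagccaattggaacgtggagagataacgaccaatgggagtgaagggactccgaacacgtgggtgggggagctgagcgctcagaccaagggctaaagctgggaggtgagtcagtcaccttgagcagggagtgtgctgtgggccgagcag

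The NRF1 letters occurred 1 time in the Cycs promoter and 3 times in that of Cox6a1, where 2 of the matches overlap. The ETS letters occurred 1 time each in Cox6a1 and Cox6b1. None of the 3 motifs was found in the Cox6b2 and Atp5g1 windows. Of all 32851 RefSeq promoters of this length, 6.25% held the NRF1 letters, 8.86% the ETS letters and 1.4% the YY1 letters. Promoters were matched by symbol for 70 of the 93 nuclear genes, under the 80% set for a count over the genes, so that count is void and is not given. Cox6a2, Cox4i1 and Cox4i2 were among those not matched.

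Cells with at least 200 detected genes and at most 5% mt- UMIs were kept, 10674 in Control, 10345 after IR and 10273 after IR+CBD, with 194839224, 202361682 and 173466089 UMIs. The libraries shared 35, 41 and 51 cell barcodes in pairs and none in all 3. The mt- limit acts on the mt- genes described here, and it removed 12.2%, 11.6% and 10.3% of the cells that passed the gene minimum. Values are given in CPM, counts per 1e+06, here the UMIs of a gene or group relative to all UMIs of the same cells. A UMI counts 1 captured 3′ end, so CPM is not divided by gene length, and levels of different genes are compared on that scale.

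Cells were also described by 6 marker gates. A gate takes every cell with at least 5 Mpo UMIs (granulocyte-monocyte progenitors), 2 Klf1 UMIs (erythroid), 2 Cd79a UMIs (B lineage), 5 Retnlg UMIs (neutrophils), 3 Siglech UMIs (plasmacytoid dendritic cells), or 1 Cd34 and 1 Adgrl4 UMI (stem and multipotent progenitors). In the order Control, IR and IR+CBD, the Mpo gate held 3227, 2916 and 3294 cells, the Klf1 gate 586, 1446 and 1181, the Cd79a gate 3524, 4072 and 3456, the Retnlg gate 1004, 1076 and 1215, the Siglech gate 273, 46 and 79, and the Cd34 Adgrl4 gate 3116, 1952 and 1970. All 7 B lineage markers checked, all 6 neutrophil markers and all 6 plasmacytoid dendritic markers had their highest level in their own gate. The same held for 6 of 7 erythroid markers (Hba-a1 was highest in the Retnlg gate), 4 of 5 granulocyte-monocyte markers (Cebpe was highest in the Retnlg gate) and 4 of 6 stem and progenitor markers (Kit and Mllt3 were highest in the Klf1 gate). Markers were checked in all cells of a gate and not again in the cells that passed exactly 1 gate. Gates overlap: 2149, 1706 and 1643 cells passed both the Mpo and the Cd34 Adgrl4 gates, and 25, 119 and 65 passed both the Klf1 and the Cd79a gates. The Cd34 Adgrl4 gate is therefore largely a gate of cells with myeloid progenitor transcripts, and it is called here by its marker genes.

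In all cells together, the nuclear respiratory chain genes took 28169 CPM in Control, 29923 after IR and 29760 after IR+CBD. The sum was 1.062-fold higher in IR than in Control (interval 1.061 to 1.064), and IR+CBD stood at 0.995-fold of IR (0.993 to 0.996). The 13 mt- genes took 7599, 8531 and 8554 CPM, a ratio of 1.123 (1.120 to 1.125) for IR over Control, while IR+CBD over IR gave 1.003 (1.001 to 1.005). Nuclear UMIs were 3.71 times the mt- UMIs in Control, 3.51 times in IR and 3.48 times in IR+CBD. Both sums were thus higher in the 2 irradiated libraries than in Control, and the irradiated libraries differed little from each other.

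The small rise of the nuclear sum was spread over many genes. Of 99 genes for which both libraries together gave at least 50 UMIs, 83 were higher in IR than in Control (75 of 86 nuclear and 8 of 13 mt-), where 41.6% of all 20226 genes tested were higher. The median log2 ratio of the 99 genes was 0.08, against -0.05 over all genes. Few genes changed by much: 6 were at least 25% higher, against 10.9% of all genes, and 3 were at least 20% lower, against 21.2%. For IR+CBD over IR, 43 of 99 were higher (50.6% of all genes), 1 was at least 25% higher (8.89%) and 2 at least 20% lower (7.99%). Both contrasts use the IR library, so a high or low value in that library moves them in opposite directions.

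The mix of cells also differed between the libraries. Klf1 gate cells, which had the highest nuclear sum of the 6 gates, were 586 in Control and 1446 in IR. With the Klf1 gate cells left out, IR over Control was 1.015 for the nuclear genes and 1.071 for the mt- genes. With gate groups weighted by their Control shares it was 1.029 and 1.085. Both settings were chosen after seeing the data, and the part of the cell mix in the higher sum was not tested. Scaling the libraries by TMM in place of total UMIs gave 1.107 and 1.170.

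**Figure D1:**
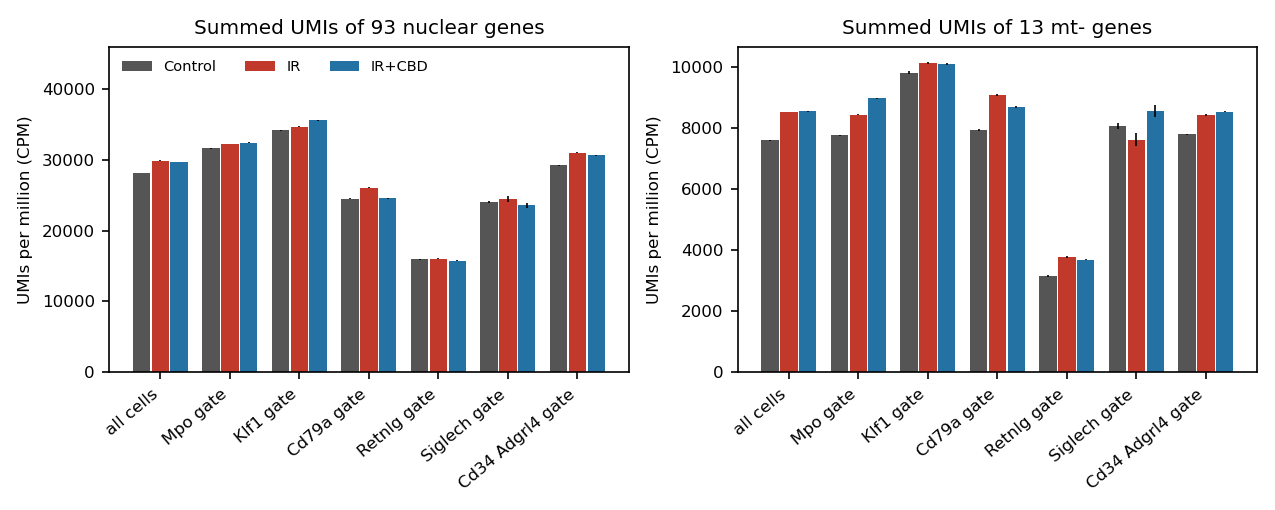
Summed UMIs of the nuclear (left) and mt- (right) respiratory chain genes in CPM, for all cells and the cells of each marker gate, with 1 bar per library and 95% Poisson intervals of counting error. The Retnlg gate had the lowest bars in both panels, at most 16036 CPM for the nuclear and between 3159 and 3791 CPM for the mt- genes, and the Klf1 gate the highest, at least 34247 and 9822 CPM.

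By complex, the nuclear genes of complex I summed to a ratio of 1.073 for IR over Control, complex II 1.098 (1.089 to 1.108), complex III 1.060, complex IV 1.052, complex V 1.061 and Cycs 1.024. For IR+CBD over IR the same sums gave 0.988, 0.941 (0.933 to 0.95), 1.009, 1.003 and 0.995, with 0.938 (0.928 to 0.948) for Cycs. Among these nuclear sums, complex II and Cycs were thus the 2 farthest below the IR library after cannabidiol, by about 6%. The mt- genes of complex V are not in these sums. They made up 2.06% of the mt- sum in IR and 1.80% in IR+CBD. All of complex II is succinate dehydrogenase. Its iron-sulphur subunit Sdhb stood at 161.7 CPM in Control, 177.9 after IR and 162.8 after IR+CBD, and its membrane anchor Sdhd at 170.8, 197.8 and 185.3. The flavoprotein subunit Sdha stood at 94.7, 96.4 and 92.4 CPM and the anchor Sdhc at 76.3, 80.8 and 80.0. Sdhb and Sdhd were highest in IR beyond counting error, while the Sdha interval for IR over Control (0.998 to 1.04) and the Sdhc interval for IR+CBD over IR (0.968 to 1.01) included 1.

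Complex II was lower in IR+CBD than in IR in 5 of the 6 gates, with ratios of 0.922 in the Mpo gate, 0.920 in Cd79a, 0.888 in Retnlg, 0.933 in Cd34 Adgrl4 and 0.992 in Siglech, where 46 and 79 cells left the interval wide. It was 1.015 in the Klf1 gate. All 4 genes were lower in IR+CBD in the Mpo, Cd79a, Retnlg and Cd34 Adgrl4 gates, and 3 of 4 were higher in the Klf1 and Siglech gates. Of all genes, 51.7% were higher in this contrast in the Mpo gate, 54.5% in Cd79a and in Cd34 Adgrl4, 41.7% in Retnlg, 43.6% in Klf1 and 57.2% in Siglech, and a count over 4 genes says little beside them. Cycs followed with 0.917 in the Mpo gate, 0.914 in Cd79a, 0.919 in Retnlg, 0.866 in Cd34 Adgrl4 and 0.712 (0.570 to 0.890) in Siglech, against 1.014 in the Klf1 gate.

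Among genes at the catalytic centres, the core complex I subunits Ndufs7 and Ndufv1 had IR over Control ratios of 1.180 and 1.156, and Ndufs1 had 1.111. Cyc1, the cytochrome c1 of complex III, stood at 202.5, 226.9 and 215.9 CPM in Control, IR and IR+CBD. The Rieske protein Uqcrfs1 stood at 199.5, 209.1 and 198.8 CPM and the core protein Uqcrc1 at 178.0, 188.8 and 189.2. In complex IV, Cox5b had a ratio of 1.118 (1.110 to 1.126), Cox4i1 1.048 and Cox5a 1.017. The catalytic beta subunit of the ATP synthase, Atp5b, had 1.060 and the gamma subunit Atp5c1 1.063, while the alpha subunit Atp5a1 was below Control at 0.974 (0.966 to 0.982). Of the 3 genes that encode the c subunit of the rotor, Atp5g1 stood at 729.3, 858.9 and 840.8 CPM, Atp5g3 at 390.9, 424.1 and 403.8, and Atp5g2 at 17.7, 16.7 and 15.7. Atp5g1 was the most abundant nuclear gene of complex V, as Ndufa4 was of complex I, Sdhd of II, Uqcrh of III and Cox8a of IV, while Sdhc and Uqcrc2 were the least abundant of II and III.

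At the other end, 7 genes had fewer than 50 UMIs over the 3 libraries: Ndufa11b, Ndufa4l2, Ndufb11b, Ndufb4c, Cox7b2, Cox8b and Cox8c. Apart from Ndufa11b, with 11, 14 and 10 UMIs, none of them reached more than 2 UMIs in a library. Cox8b is the muscle isoform of Cox8a. These genes enter the sums but no count of higher or lower genes.

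**Figure D2:**
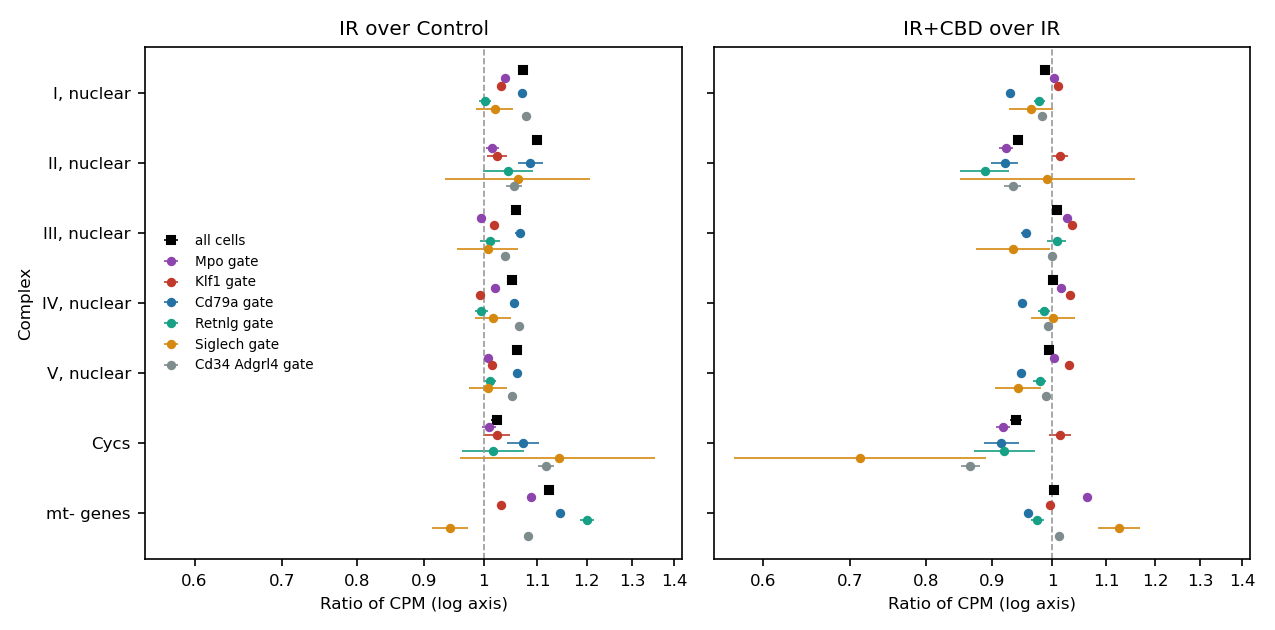
Ratio of CPM for IR over Control (left) and IR+CBD over IR (right), on a log axis, for the nuclear genes of each complex, Cycs and the mt- genes, with 1 point per gate, a square for all cells and 95% intervals of counting error. Complex II and Cycs sit left of 1 in the right panel in all cells, at 0.941 and 0.938, and the Cd79a gate sits left of 1 in every row of that panel.

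Within gates, nuclear sums for IR over Control were closer to 1 than over all cells in 4 of the 6 gates. The ratio was 1.019 in the Mpo gate, 1.015 in Klf1, 1.005 in Retnlg and 1.016 in Siglech, against 1.064 in Cd79a and 1.062 in Cd34 Adgrl4. In Mpo gate cells that passed no other gate it was 0.990. Of the Cd34 Adgrl4 gate cells, 2149 of 3116 in Control and 1706 of 1952 in IR also passed the Mpo gate. The Control nuclear sum was 31654 CPM in the Mpo gate and 29251 in Cd34 Adgrl4. The part of this shift in the Cd34 Adgrl4 values was not tested. The genes higher in IR were 60 of 98 in the Mpo gate (41.6% of all genes tested), 64 of 97 in Klf1 (46.6%), 84 of 98 in Cd79a (45.4%), 55 of 95 in Retnlg (47.6%), 48 of 94 in Siglech (43.4%) and 78 of 98 in Cd34 Adgrl4 (40.8%). In B lineage (Cd79a gate) cells the nuclear sum stood at 24529 CPM in Control, 26092 after IR and 24571 after IR+CBD, so the IR library alone was high. There only 10 of 97 genes were higher in IR+CBD than in IR, where 54.5% of all genes were, and the ratio of the sums was 0.942. The other gates gave 50 of 98 in Mpo (51.7% of all genes), 68 of 96 in Klf1 (43.6%), 28 of 95 in Retnlg (41.7%), 38 of 88 in Siglech (57.2%) and 40 of 98 in Cd34 Adgrl4 (54.5%), with ratios of 1.006, 1.025, 0.981, 0.963 and 0.987. The direction did not hold in 3 of these gates: the Mpo ratio was 0.999 without an mt- limit, the Retnlg ratio 1.030 as a mean of single-cell CPM and 1.011 with gates drawn on thinned cells, and the Siglech ratio 1.074 without Scrublet doublets and 1.047 as a single-cell mean. In the Klf1 gate the nuclear sum was 34247, 34746 and 35610 CPM. Median UMIs per Cd79a gate cell were 4042, 3852 and 3416, and the part of this depth in the B lineage values was not tested. Depth also differed in the Mpo gate, at 33196, 30684 and 24151 UMIs, and in Cd34 Adgrl4, at 27462.5, 32784.5 and 26468.5. Its part in the values of these gates was not tested either.

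The mt- sum was higher in IR than in Control in 5 gates, at 1.088 in Mpo, 1.032 in Klf1, 1.144 in Cd79a, 1.2 in Retnlg and 1.082 in Cd34 Adgrl4. It was 0.942 in the Siglech gate, where IR had 46 cells, but 1.018 there without Scrublet doublets, 1.030 as a mean of single-cell CPM and 1.074 in cells that passed no other gate. These sums count every cell of a gate, also those that passed other gates. In cells that passed only the Retnlg gate, mt-Cytb was slightly higher in IR than in Control, while mt-Nd1, mt-Nd3 and mt-Co1 were lower. For IR+CBD over IR the mt- sum was 1.063 in Mpo, 0.997 in Klf1, 0.958 in Cd79a, 0.974 in Retnlg, 1.125 in Siglech and 1.013 in Cd34 Adgrl4. In this contrast the Retnlg value turned to 1.115 and the Siglech value to 0.995 as single-cell means, and the Cd34 Adgrl4 value to 0.991 with TMM sizes. The mt- limit removed unequal shares of gate cells: 9.63%, 5.54% and 8.90% of Mpo gate cells and 2.52%, 6.09% and 4.24% of Cd79a gate cells in Control, IR and IR+CBD. Without any limit on mt- UMIs the all-cell ratio for IR over Control was 1.082.

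Single mt- genes spanned a wide range although mitochondrial DNA is transcribed as long polycistronic RNAs. mt-Cytb, the cytochrome b of complex III, had 2691, 3157 and 3187 CPM in Control, IR and IR+CBD and was the most abundant mt- gene in every library. The complex I genes mt-Nd1 (1394, 1559 and 1556 CPM), mt-Nd2 (1033, 1208 and 1166) and mt-Nd4 (1034, 1155 and 1158) were also higher in both irradiated libraries. mt-Co1 (634.6, 628.7 and 666.8 CPM) and mt-Nd5 (482.8, 461.1 and 479.9) were slightly lower in IR than in Control. mt-Nd3 had 116.8, 108.5 and 114.7 CPM, mt-Atp8 101.7, 93.8 and 90.6, mt-Nd6, which is encoded on the other strand, 25.3, 25.4 and 26.9, and mt-Nd4l 7.28, 6.11 and 6.79. The other complex IV genes and mt-Atp6 stood far below mt-Co1: mt-Co2 at 9.82, 14.4 and 11.2 CPM, mt-Co3 at 19.8, 31.7 and 26.6, and mt-Atp6 at 48.6, 81.8 and 63.6.

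Most of these low genes share nearly their whole sequence with other annotated genes. Of all windows of 90 bases in the transcript, 99.86% were also found in another gene for mt-Co3, 99.5% for mt-Co2 and mt-Atp6, 98.6% for mt-Nd4l and 97.7% for mt-Nd3, in each case chiefly a predicted gene (such as Gm28437, Gm28661 and Gm10925). For mt-Nd4 the share was 61.1% and for mt-Co1 33.4%, and for mt-Cytb, mt-Nd1, mt-Atp8 and mt-Nd6 it was 0. In the last 500 bases of the transcript, nearest the counted 3′ end, the share was 94.9% for mt-Co1 and 0 for mt-Nd4, and at least 97.7% for the other genes with high shares. Shared sequence and low counts did not go together throughout, since mt-Co1 had over 600 CPM and mt-Nd6 was low with no shared window. Reads that match several genes are commonly dropped before UMIs are counted, and the part of this in the levels was not tested, so the levels of these genes and the complex IV and V shares of the mt- sum are uncertain.

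mt-Atp6, mt-Co3 and mt-Co2 were also among the 6 genes at least 25% higher in IR than in Control, with ratios of 1.683 (1.641 to 1.727), 1.600 (1.537 to 1.665) and 1.464 (1.382 to 1.552). For mt-Atp6 the ratio lay between 1.615 and 1.790 in 5 gates and was 1.227 (0.873 to 1.693) in the Siglech gate. In IR+CBD over IR these genes stood at 0.778, 0.837 and 0.779, so IR+CBD fell between the other libraries. The accessory complex I subunits Ndufb4 and Ndufa12 had the same order of libraries. Ndufb4 stood at 25.9, 37.7 and 30.9 CPM, with 1.456 (1.405 to 1.509) for IR over Control, and Ndufa12 at 122.9, 159.7 and 139.5 CPM, with 1.3 (1.278 to 1.322). Neither shared a window with another gene in the last 500 bases of its transcript, although 34.1% of all Ndufb4 windows were found in Ndufb4c and 19.4% of all Ndufa12 windows in Ndufa12-ps.

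**Figure D3:**
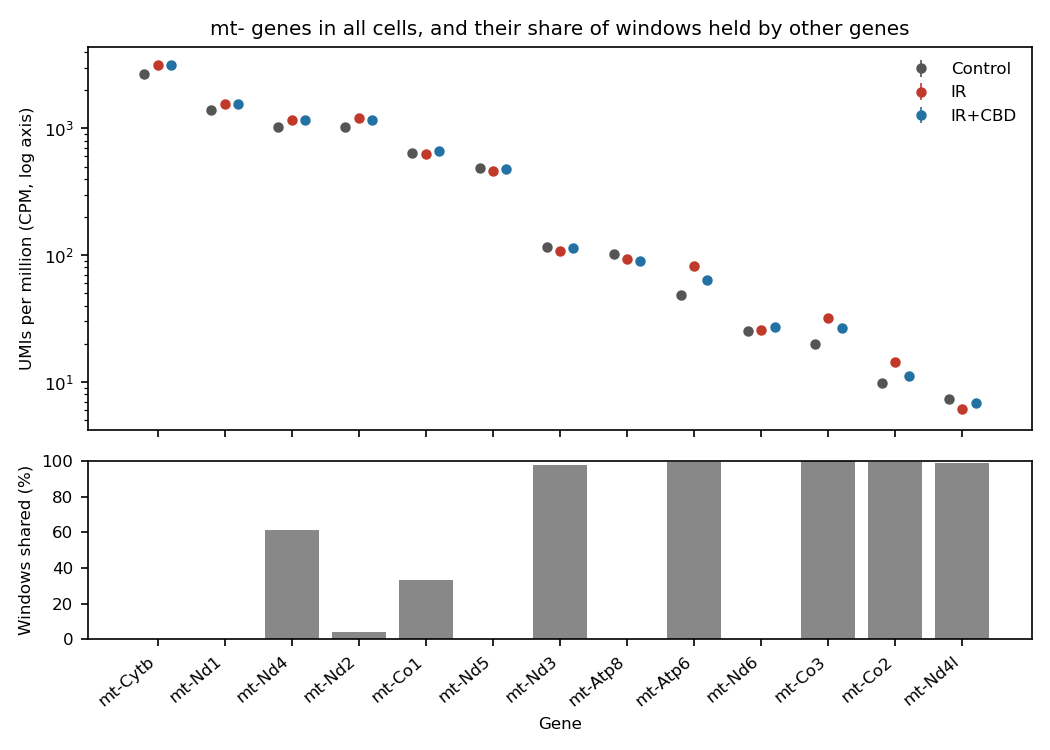
Top, CPM of each mt- gene in all cells on a log axis, with 1 point per library in order of the level. Bottom, the percent of its 90-base windows also found in another annotated gene. mt-Co2, mt-Co3 and mt-Atp6, which have shares of 99.5% and above, are low in every library and highest in IR.

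The 3 genes at least 20% lower in IR than in Control were Cox6a2, the Atp5o gene ENSMUSG00000116933 and Cox4i2. Cox6a2, the heart and skeletal muscle isoform of Cox6a1, stood at 27.5, 8.79 and 12.1 CPM, a ratio of 0.319 (0.303 to 0.337) for IR over Control, with 1.373 (1.289 to 1.464) between IR+CBD and IR. Siglech gate cells, where it was concentrated, numbered 273, 46 and 79. Within that gate Cox6a2 stood at 873.5, 669.0 and 1100 CPM, a ratio of 0.766 (0.689 to 0.850) and then 1.645 (1.463 to 1.852). Atp5o (ENSMUSG00000116933), which shares 79.8% of its windows with other genes, chiefly Donson, had 4.65, 2.97 and 3.03 CPM. Cox4i2, an isoform of Cox4i1 known from lung and from hypoxia, had 3.85, 2.77 and 2.67 CPM. Atp5k, subunit e of the ATP synthase, moved less but with far more UMIs, at 379.1, 346.0 and 377.3 CPM and a ratio of 0.913 (0.903 to 0.922). It was under 1 in IR over Control in all 6 gates, with an interval reaching over 1 in the Siglech gate.

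Differences between gates could be tested, since every gate occurs in 3 libraries. UMIs were summed per gate and library over cells that passed exactly 1 gate, and each gate was compared with the mean of the other 5 by edgeR's quasi-likelihood test with the library as a block and Benjamini-Hochberg adjustment over 17283 genes (threshold 0.05). The 3 libraries of a gate differ in treatment. Of the 106 genes, 98 were tested (85 nuclear and 13 mt-). Such cells numbered 938, 1062 and 1415 in the Mpo gate, 483, 1193 and 984 in Klf1, 3165, 3706 and 3117 in Cd79a, 838, 909 and 1003 in Retnlg, 229, 36 and 65 in Siglech and 863, 211 and 277 in Cd34 Adgrl4. Log2 fold changes are on TMM-scaled totals, whose factors were 0.484 to 0.503 for the Retnlg gate and 0.983 to 1.358 for the others, so a gene can be called higher in the Retnlg gate at a CPM no higher than elsewhere.

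Nearly the whole chain was higher in the Mpo and Klf1 gates. In the Mpo gate 91 of 98 genes were higher and 3 lower, against 38.6% and 24.4% of all genes, with a median log2 fold change of 0.67 against 0.14 over all genes. In the Klf1 gate 85 were higher and 4 lower, against 38.3% and 35.2%, with a median of 0.74 against -0.04. All 9 nuclear complex III genes were higher in both gates, all 37 nuclear complex I genes tested were higher in the Mpo gate and all 4 complex II genes in the Klf1 gate. Cycs led the abundant genes in the Mpo gate, with 628.8, 585.5 and 549.2 CPM in Control, IR and IR+CBD against a mean of 193.1, 224.7 and 198.7 in the other gates (log2 fold change 1.77, SE 0.08, adjusted p = 1.15e-13). Atp5g1 was high in both, at 968.7, 978.4 and 980.8 CPM in the Mpo gate (log2 fold change 1.59, SE 0.07) and 1224, 1268 and 1303 CPM in the Klf1 gate (1.98, SE 0.07, adjusted p = 6.62e-17), with no overlap with any other gate's libraries. In the Klf1 gate Cyc1 (1.62, SE 0.08) and Sdhd (1.43, SE 0.07) followed. The lowest were Cox6a2, the Atp5o gene ENSMUSG00000116933 and Cox7a2l in the Mpo gate, and Cox6a2, Cox7a1 and the same Atp5o gene in the Klf1 gate. Cox7a2l, a factor of respiratory supercomplex assembly, stood at 213.6, 208.5 and 205.2 CPM in the Mpo gate (log2 fold change -0.41, SE 0.06).

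In the Cd79a gate the 2 genomes moved apart relative to the mean of the other gates, which include the Retnlg gate with its low mt- values. Of the nuclear genes 6 were higher and 58 of 85 lower, while 11 of 13 mt- genes were higher and none lower, so that 17 of 98 genes were higher and 58 lower against 38.3% and 24.5% of all genes. The median log2 fold change was -0.24 for the nuclear and 0.37 for the mt- genes, against 0.14 over all genes. Over all cells of a gate, the mt- sum was 7947, 9090 and 8708 CPM in Cd79a and 3159, 3791 and 3694 in Retnlg. It was 7765, 8448 and 8982 CPM in Mpo and 9822, 10131.5 and 10103 in Klf1. The Siglech gate had 8084, 7619 and 8573 CPM and the Cd34 Adgrl4 gate 7798, 8436 and 8546. mt-Nd5 stood at 609.5, 592.1 and 619.9 CPM there (log2 fold change 0.57, SE 0.06) and mt-Cytb at 2842, 3303 and 3236 (0.33, SE 0.06). Among nuclear genes Cox7a2l was higher, at 483.2, 488.3 and 434.3 CPM against 277.3, 263.9 and 262.8 in the other gates (0.68, SE 0.05, adjusted p = 1.62e-10). Cox7a1, the muscle isoform of Cox7a2, was called higher at under 4.2 CPM. The lowest were Cox6b2, the Atp5o gene ENSMUSG00000116933 and Ndufv3. Without the IR+CBD library 38 genes were lower in place of 58, and with gates drawn on cells thinned to 5000 UMIs 35 were.

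In the Retnlg gate both genomes were mostly lower, the mt- genes by more. All 13 mt- genes were lower, with a median log2 fold change of -1.18, and of the nuclear genes 52 of 85 were lower and 14 higher, with a median of -0.35 against -0.33 over all genes. In all, 14 of 98 genes were higher and 65 lower, against 32% and 39.5% of all genes. mt-Nd3 stood at 14.0, 11.1 and 10.9 CPM against 136.1, 121.9 and 139.0 in the other gates (-2.24, SE 0.10, adjusted p = 2.85e-15), mt-Nd1 at 181.0, 169.4 and 152.5 CPM (-2.03, SE 0.09) and mt-Cytb at 389.8, 402.1 and 387.3 (-1.77, SE 0.08). mt-Co1 was lowered least, at 281.0, 270.4 and 291.7 CPM (-0.13, SE 0.05, adjusted p = 0.038). The nuclear Atp5a1 fell to 95.4, 87.8 and 89.4 CPM (-1.205, SE 0.063), and all 9 nuclear complex III genes were lower. The genes with the highest values were Ndufv3 (1.21), Ndufb7 (1.09) and Ndufa1 (0.81), accessory subunits of complex I. Their CPM in this gate was close to or below the mean of the others, with Ndufv3 at 151.1, 137.3 and 147.8 CPM against 148.6, 143.2 and 150.4, so they were higher on the TMM scale and not clearly so in CPM. With DESeq2's median-of-ratios factors in place of TMM, 30 genes were higher and 50 lower, and the median over all genes moved from -0.33 to -0.03. The mt- genes were then 12 lower and 1 higher. The same factors moved the median over all genes from 0.14 to -0.003 in the Mpo gate and from -0.04 to -0.17 in the Klf1 gate, where 83 and 80 genes were then higher.

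In the Siglech gate 72 of 98 genes were lower and 5 higher, against 19.6% and 17.4% of all genes, with 70 of 85 nuclear genes lower. The gene farthest above the other gates was Cox6a2, at 1236, 871.8 and 1592 CPM against 17.9, 17.3 and 14.9 in the other gates (log2 fold change 8.24, SE 0.15, adjusted p = 2.18e-20). The Atp5o gene ENSMUSG00000116933 was also higher (2.61, SE 0.25), at 31.0, 20.9 and 39.5 CPM, and so was mt-Nd3 (0.49, SE 0.10). The lowest called were Cox6b2 (-1.84), Ndufb4 (-1.10) and Sdhd (-1.02). Between 2 and 11 genes were higher over the alternatives tried, and 3 to 4 with a library left out.

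In the Cd34 Adgrl4 gate 61 genes were lower and 6 higher, against 21.9% and 31.8% of all genes, and 12 of 13 mt- genes were not called. Cox7a2 (-0.77, SE 0.07), Cox6a1 (-0.74) and Ndufa1 (-0.73) were lowest, and Cox4i2 (3.73, SE 0.39), Cox6a2 (3.20, SE 0.19) and the Atp5o gene ENSMUSG00000116933 (0.79) highest. The test compares a gate with the mean of the other gates on the log scale. For Cox6a2 the arithmetic mean of the other gates, 250.6, 178.4 and 322.6 CPM, lay above the 72.5, 66.4 and 53.3 CPM of the Cd34 Adgrl4 gate because the Siglech gate is one of them, while each of the other 4 gates lay below 19 CPM. This result depended on which cells were counted. When cells that passed several gates were counted in each, which brings in the cells also positive for Mpo, 58 genes were higher and 1 lower, and Cox7a2 went to 0.07 and this Atp5o gene to -0.10.

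**Figure D4:**
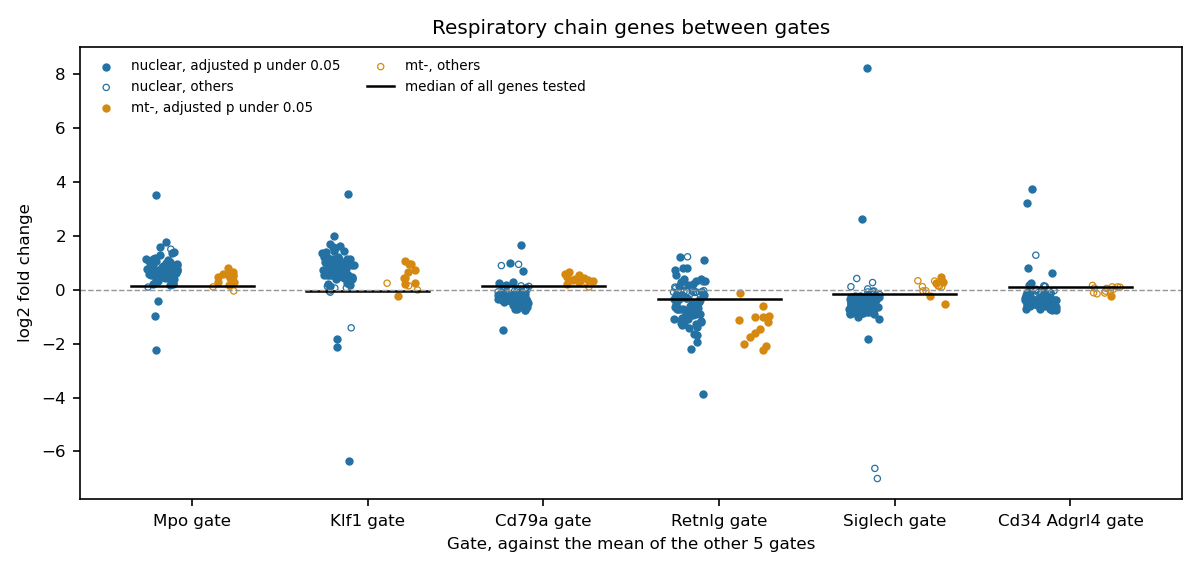
Log2 fold change of each respiratory chain gene in a gate against the mean of the other 5 gates, for nuclear (blue) and mt- (orange) genes, filled where the adjusted p was under 0.05, with a black line at the median of all genes tested. Most nuclear points lie above the line in the Mpo and Klf1 gates, 12 of the 13 mt- points lie below it in the Retnlg gate, and the highest point is Cox6a2 in the Siglech gate at 8.24. The 2 open points under -6 in the Siglech gate are Cox4i2 and Cox6c2, listed at 0 in all 3 libraries there.

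The isoform genes of complex IV were the members most tied to a gate. Cox6a2 and Cox6a1 encode alternative forms of the same subunit, and in Siglech gate cells that passed no other gate Cox6a2 exceeded Cox6a1, which stood at 249.1, 298.6 and 254.5 CPM. In the other 5 gates Cox6a1 was the higher of the pair, in the Klf1 gate with 465.5, 454.0 and 464.5 CPM against under 0.6 for Cox6a2. After thinning every cell to 2000 UMIs, a Cox6a2 UMI was held by 74.7% of the Siglech gate cells in Control, 58.7% after IR and 75.6% after IR+CBD (exact binomial intervals 69.1 to 79.8%, 43.2 to 73.0% and 64.6 to 84.7%), and before thinning 93%, 80.4% and 84.8% did. In thinned Klf1 gate cells the share was 0.512% in Control, 0 of 1445 cells in IR (exact upper limit 0.255% for thinned cells) and 0.0848% in IR+CBD, and before thinning it was 3.07%, 0.968% and 0.847%. Median depth before thinning was 7722, 9803 and 7465 UMIs in the Siglech gate and 39670, 42567 and 40039 in the Klf1 gate, so the gate with the lower share was the deeper. The call of Cox6a2 as higher in the Cd79a gate (0.99, SE 0.22), at 13, 17.9 and 18.8 CPM against an arithmetic mean of 262.5, 188.1 and 329.5 in the other gates, Siglech included, turned to -1.22 when gates were drawn on thinned cells.

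Cox6b2, known as the testis isoform of Cox6b1, was highest in the Klf1 gate, at 280.9, 222.9 and 251.8 CPM against 26.2, 24.5 and 31.3 in the other gates (log2 fold change 3.54, SE 0.10, adjusted p = 5.91e-18). Cox6b1 remained the higher of the pair there, at 810.3, 809.3 and 845.2 CPM. In thinned cells 40.8%, 35.9% and 38.7% of the Klf1 gate held a Cox6b2 UMI, against 9.43%, 8.48% and 10.3% of the Mpo gate and 3.66%, 3.27% and 3.10% of the Cd79a gate. Before thinning the Klf1 gate shares were 97.4%, 98.1% and 98.3%. In all cells Cox6b2 stood at 66.9, 92.3 and 101.3 CPM, with 1.380 (1.349 to 1.411) for IR over Control, while the Klf1 gate grew from 586 to 1446 cells and Cox6b2 within it went from 258.7 to 210.8 CPM (0.815, 0.791 to 0.840). In the Cd79a gate its ratio was 1.623 with all gate cells and 0.719 in cells that passed no other gate, and in the Retnlg gate 1.692 and 0.656.

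Cox4i2 was low everywhere, with 3.23, 3.93 and 2.93 CPM in the Mpo gate and 4.28, 8.91 and 2.46 in the Cd34 Adgrl4 gate, where Cox4i1 stood at 853.1, 935.6 and 924.4. Cox6c2, a copy that shares 39.4% of its windows with Cox6c, was called higher in the Klf1 gate (1.68, SE 0.60, adjusted p = 0.0165) at under 1.2 CPM. In these cells the second isoforms of the Cox4 and Cox7a pairs thus stayed far below the first in every gate, as the plot of isoform pairs shows.

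**Figure D5:**
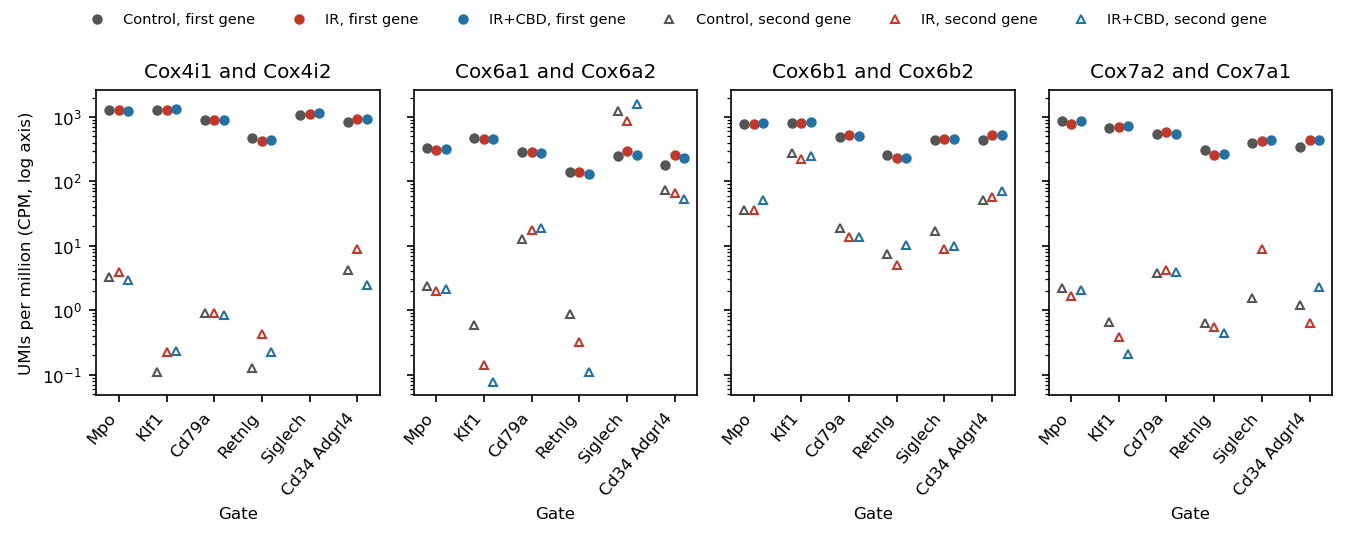
CPM on a log axis of 4 isoform pairs of complex IV in cells that passed exactly 1 gate, with filled circles for the gene named first in each panel title, open triangles for the second, and 1 point per library. Values of 0 cannot be drawn on this axis and are left out. Cox6a2 lies above Cox6a1 in the Siglech gate and Cox6b2 comes nearest to Cox6b1 in the Klf1 gate.

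Other mitochondrial gene lists are set beside the chain for comparison. For IR over Control in all cells, mitochondrial ribosome genes had a summed ratio of 1.098 (73 of 78 higher), import and cristae genes 1.093 (27 of 31), mitochondrial DNA expression genes 1.076 (14 of 15), assembly factors of the chain 1.062 (34 of 45) and TCA cycle genes 1.044 (10 of 13). The biogenesis regulators, which include Nrf1 and Gabpa, had 0.974 (4 of 8 higher), and cytosolic ribosome genes 1.022 (66 of 102). Of all genes tested, 41.6% were higher. For IR+CBD over IR the ratios were 0.961 (6 of 78), 0.970 (6 of 31), 0.972 (3 of 15), 0.977 (12 of 45), 0.982 (4 of 13), 0.978 (1 of 8) and 1.002 (48 of 101) in the same order, where 50.6% of all genes were higher. The respiratory chain itself, at 0.995 for its nuclear genes, lay above the mitochondrial lists in this contrast. In the Cd79a gate, where the nuclear chain stood at 0.942, mitochondrial ribosome genes stood at 0.918 (3 of 77 higher, against 54.5% of all genes), assembly factors at 0.946, TCA cycle genes at 0.95 and cytosolic ribosome genes at 0.953. The Klf1 gate gave 0.999, 1.000, 1.028 and 1.015 for these lists in that order. For IR over Control, mitochondrial ribosome genes in the Mpo gate stood at 1.007 (36 of 78 higher) and TCA cycle genes at 0.973 (3 of 13). Import and cristae genes stood at 1.004 (14 of 30), assembly factors at 1.021 (27 of 45) and mitochondrial DNA expression genes at 1.022 (8 of 15). In that gate 41.6% of all genes were higher. The Cd79a gate gave 1.053 to 1.094 for these lists.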

How the data were processed

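RNA of single bone marrow cells was counted in 3 libraries (10x Genomics 3′ V2), 1 each for Control, IR and IR+CBD. The deposited matrices hold UMI counts per gene and cell, which the authors made with Cell Ranger (version 4.0 and build GRCm39 in their processing notes, 7.0.1 in the matrix headers). Cells with at least 200 genes and at most 5% mt- UMIs were kept, and doublets were not removed except in 1 alternative (Scrublet in scanpy 1.11.5). UMIs were summed per library and gate, giving CPM with exact Poisson intervals and ratios with exact conditional binomial intervals. Depth was 173466089 to 202361682 UMIs per library. Gates were compared with edgeR 4.0.16 (R 4.3.3; quasi-likelihood, TMM, filterByExpr), with DESeq2 1.42.0 as an alternative. SEs were taken from the log2 fold change and its F statistic.

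The genes, gates and lists were chosen with earlier results of these data known. Named were all mt- genes, Cycs, catalytic and isoform genes, the most and least abundant of a complex, the 5 highest and 5 lowest ratios in all cells (2 and 2 per gate, at least 100 UMIs in each library, ranked by the interval bound nearest 1) and the 3 highest and 3 lowest called between gates. Of these, the per-gate extremes are given only where the text turns on them. The values of 1 catalytic gene are not reported here. Windows were compared over GENCODE M21 transcripts and promoters taken from RefSeq GRCm38.p6, which is not the build of the counts.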

Additional observations from a re-analysis of the deposited data

Results flagged for a closer look

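Several ratios pointed in opposite directions in different gates beyond counting error. None of these differences was tested, since each group is 1 library, and several changed side of 1 under other processing. The nuclear genes in IR+CBD over IR stood at 1.01 in the Mpo gate and 1.02 in Klf1, against 0.942 in Cd79a, 0.981 in Retnlg, 0.963 in Siglech and 0.987 in Cd34 Adgrl4, and the Mpo, Retnlg and Siglech values each changed side under at least 1 alternative. The mt- genes in IR over Control stood at 1.09 in Mpo, 1.03 in Klf1, 1.14 in Cd79a, 1.2 in Retnlg and 1.08 in Cd34 Adgrl4, against 0.942 in Siglech, which rose over 1 under 3 alternatives. The mt- genes in IR+CBD over IR stood at 1.06 in Mpo, 1.13 in Siglech and 1.01 in Cd34 Adgrl4, against 0.958 in Cd79a and 0.974 in Retnlg, and the Siglech, Cd34 Adgrl4 and Retnlg values each changed side under at least 1 alternative. Cox6b2 in IR over Control stood at 1.09 in Mpo, 1.62 in Cd79a, 1.69 in Retnlg and 1.13 in Cd34 Adgrl4, against 0.815 in Klf1, and the Cd79a and Retnlg values fell under 1 in cells that passed no other gate.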

How the results depend on the processing

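With 1 library per treatment, counting error is far smaller than any spread between mice, which was not measured. For the nuclear sum, IR over Control became 1.107 with TMM or median-of-ratios sizes, 1.073 as a mean of single-cell CPM, and, chosen after seeing the data, 1.029 with gates weighted by Control shares and 1.015 without Klf1 gate cells. IR+CBD over IR became 0.993 with an mt- limit of 10% or none, 0.992 without Scrublet doublets or without Klf1 gate cells, 0.989 with TMM or median-of-ratios sizes and 0.986 as a single-cell mean. For the mt- sum, IR over Control became 1.116 with a limit of 10% or without doublets, 1.082 with no limit, 1.170 with TMM or median-of-ratios sizes, 1.114 as a single-cell mean, 1.085 weighted and 1.071 without Klf1 gate cells. IR+CBD over IR became 1.020 with a limit of 10%, weighted or without Klf1 gate cells, 1.006 with no limit, 0.997 with TMM or median-of-ratios sizes, and 1.005 without mt- genes over 90% shared. The counts of genes past the fold limits stayed within 7 to 11 (9 as reported) and at 3.

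Between gates, genes lower in Klf1 (4) became 8 with DESeq2 and 7 with its size factors in edgeR. Genes higher in Cd79a (17) became 7 when cells of several gates were counted in each, and genes lower there (58) became 35 with gates on thinned cells. Genes higher in Retnlg (14) became 30 with DESeq2 or its size factors and 8 with no filter on low counts. Genes higher in Siglech (5) became 11 with DESeq2 or its size factors, 3 with no filter or an mt- limit of 10%, and 2 with cells of several gates counted in each. The Cd34 Adgrl4 counts (6 higher, 61 lower) became 58 and 1 with cells of several gates counted in each. Leaving out 1 library gave 38 to 60 lower genes in Cd79a, lowest without IR+CBD, and 3 to 4 higher genes in Siglech, lowest without Control and without IR+CBD. Sums within gates also changed side of 1. Nuclear IR over Control in Mpo became 0.990 in cells of exactly 1 gate. Nuclear IR+CBD over IR became 0.999 with no mt- limit and 0.9999 with TMM sizes in Mpo, 1.030 (single-cell mean) and 1.011 (thinned gates) in Retnlg, and 1.074 (without doublets) and 1.047 (single-cell mean) in Siglech. The mt- sum in IR over Control became 1.018, 1.030 and 1.074 in Siglech (without doublets, single-cell mean, exactly 1 gate), and in IR+CBD over IR 1.115 in Retnlg and 0.995 in Siglech (single-cell means) and 0.991 and 0.997 in Cd34 Adgrl4 (TMM and median-of-ratios sizes). Complex IV in all cells, IR+CBD over IR, became 0.997 with either size and 0.988 as a single-cell mean. Complex II changed side in 0 of 48 values for IR over Control and 0 of 58 for IR+CBD over IR, while complexes I, III, IV and V did in 0, 0, 3 and 6 values of the former and 6, 3, 8 and 3 of the latter. Only sums whose reported interval left out 1 entered these counts, so some gates are not in them. Single genes that turned were Cox6b2 in IR over Control, to 0.971 (single-cell mean) and 0.719 (cells of exactly 1 gate) in the Cd79a gate and to 0.656 (cells of exactly 1 gate) in the Retnlg gate, and, between gates, Cox6a2 in Cd79a, to -1.22 with gates on thinned cells, and Cox7a2 and Atp5o (ENSMUSG00000116933) in Cd34 Adgrl4, to 0.0713 and -0.10 with cells of several gates counted in each. The cause was not tested. No paired analysis was possible because each treatment is 1 library and no label pairs libraries, and the test between gates already has the library as a block.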
